A study of Mus musculus with 6 samples.

Results

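The genes described here are 45 lysosome genes: enzymes that digest material inside the lysosome, proteins of its membrane, its proton pump, the receptors that sort enzymes to it, and 3 transcription factors that control many of them. They were chosen by name as a functional group, with cathepsins left aside, out of 19751 genes named on the array. The choice was made with earlier results of these data known. All 45 had at least 1 probe that passed the filter on dim probes, and 61 of their 62 probes did.

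The lysosome is the acidic compartment in which cells break down proteins, sugar chains and lipids. Its enzymes are made as secretory proteins, are tagged with mannose 6-phosphate and are carried to the compartment by receptors, while a V-type ATPase pumps in protons. In the testis, Sertoli cells engulf the residual bodies and dying germ cells of the seminiferous tubule and digest them in lysosomes, and interstitial macrophages are rich in lysosomes too.

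RNA of whole testis was measured in 3 mice with a TAp73 knockout and 3 wild type mice, all male C57BL/6J animals aged 10 weeks, on Agilent arrays of 1 colour, each mouse on an array of its own. TAp73 denotes the products of Trp73 that carry its transactivation domain; which exons were deleted, and in which cells, the sources used here do not say. Values are given as a percent of the 75th percentile of the same array's signals, and differences as log2, knockout minus wild type, with the standard error (SE) of the limma fit. An adjusted p is the Benjamini-Hochberg value over all tested probes, and a gene fell or rose (was called) where it was under 0.05.

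The labels of the scanner files were used, and all directions depend on them. The authors' value table of the same arrays carries the labels the other way round. The 3 knockout scanner files correlated best with wild type columns of that table (0.94 to 0.98), and the 3 wild type files with knockout columns (0.83 to 0.99). Same-label columns gave -0.33 to -0.20. In the scanner files Trp73 was lower in the arrays labelled knockout, by -6.01, -3.21 and -0.99 at its 3 probes (adjusted p of 0.00369, 0.00213 and 0.0104).

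Between 74.4% and 84.4% of probes were well above background per array, and 1.6% to 4.5% were saturated. Wild type arrays had a 75th percentile that was 0.26 (log2) above that of the knockouts, so a probe at the scanner's limit on every array reads 0.26 higher in the knockout. Of all tested probes 2.64% fell and 0.248% rose, 838 against 79; the counts were 868 against 217 with quantile normalization and 569 against 143 with median scaling. Knockout replicate 1 stood more than 2-fold below both other knockout arrays at 580 probes, against 61 to 152 for the other knockout arrays. Wild type replicate 1 did so at 339 probes among the wild type arrays, and the other wild type arrays at 19 and 23.

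Of the 45 lysosome genes, 7 fell in the knockout and 0 rose. They were the membrane protein Gpnmb, the lipase Lipa, the protease Lgmn, the lipid-enzyme activator Psap, the sialidase Neu1, the sulfatase Ids and the transcription factor Mitf. These 7 were 15.6% of the group. With 1 probe per gene, 3.53% of all 16947 measured genes fell and 0.218% rose. Gpnmb, 1 of the 7, passed the filter on dim probes only through the wild type arrays. The group was chosen with earlier results of these data known, so its comparisons with all genes describe it and are no test. The median over the group was -0.17 (range -4.02 to 0.27), against 0.05 over all measured genes. Differences lay below 0 for 30 genes and above 0 for 15, against 7147 and 9800 of all measured genes. With limma's p before adjustment under 0.05, 17 were lower and 4 higher, where 13.6% of all measured genes were lower and 12.0% higher. The 3 knockout arrays lay below all wild type arrays for 21 of the 45, against 16.0% of all measured genes, and above them for 7, against 19.2%.

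Calls among the 45 genes, 7 in the main fit, depended on which arrays were used. The count was 3 without knockout replicate 1, 1 without replicate 2, 1 without replicate 3, 3 without wild type replicate 1, 0 without wild type replicate 2 (limma; 15 lower by unadjusted p under 0.05) and 2 without wild type replicate 3. The 3 called without knockout replicate 1 were Lipa, Lgmn and a gene outside the 7. Slide as a block left 2, Lipa and Lgmn. Under normexp background correction the count was 0 (limma, with 5 lower by unadjusted p under 0.05), where no probe on the whole array was called. Over the 6 fits that left out 1 array, Lipa was called in 5, Lgmn in 3 and Gpnmb in 1. Psap, Neu1, Ids and Mitf were called in 0 of them.

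**Figure D1:**
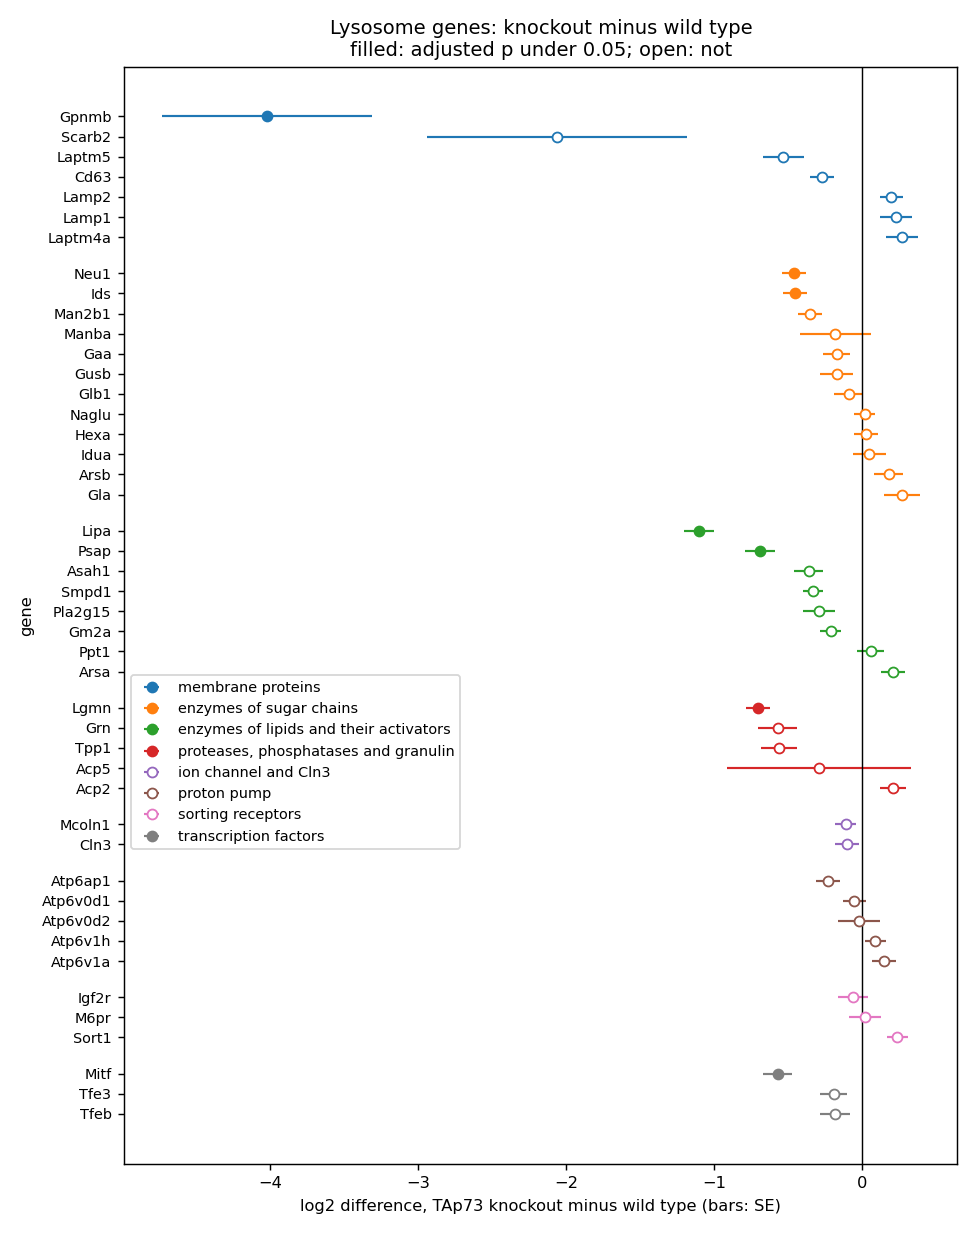
Log2 difference between TAp73 knockout and wild type testis for each of the 45 lysosome genes, grouped by role, with bars of 1 SE and filled points for genes with an adjusted p under 0.05. Gpnmb lies at -4.02, the other 6 filled points at -1.10 to -0.45, and the genes of the proton pump and the sorting receptors at -0.23 to 0.24.

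Among 7 membrane proteins 1 fell and 6 did not pass the test (median -0.27), where 3.53% of all measured genes fell. Gpnmb, a transmembrane glycoprotein of phagocytes, melanocytes and osteoclasts that is linked to lysosome stress, read 1.28, 8.72 and 3.40% in wild type replicates 1 to 3. In the knockouts it read 0.174, 0.350 and 0.147%. It was well above background on all 3 wild type arrays and on no knockout array, so its fall is a bound: at least 7.69-fold lower (adjusted p = 0.0455). Gpnmb passed the filter on dim probes only through the wild type arrays, and with no filter its adjusted p was 0.095; without Gpnmb, 6 of the 45 genes were called. The wild type arrays themselves spanned from 1.28 to 8.72%. The fitted difference of -4.02 (SE 0.71) rests on these dim values and is no measure of size; it was -0.65 under normexp and -3.08 within slide 1.

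Lamp1 and Lamp2, abundant glycoproteins of the lysosomal membrane, did not pass the test. Lamp2 read 247, 239 and 250% in wild type and 259, 286 and 304% in the knockouts (0.20, SE 0.08, adjusted p = 0.215), with no overlap between the groups. Its second probe disagreed, as described further on. Lamp1 differed by 0.23 and Laptm4a, a small protein spanning the lysosomal membrane, by 0.27 (adjusted p = 0.257 and 0.213). Laptm4a read 1280, 1260 and 1300% in wild type and 1390, 1780 and 1470% in the knockouts. Both of these probes were saturated on 5 of 6 arrays, and their differences are close to the 0.26 that scaling alone gives such a probe.

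The related Laptm5, which is found mainly in blood-derived cells, read 4.93, 4.69 and 3.66% in wild type and 3.23, 2.69 and 3.24% in the knockouts (-0.53, adjusted p = 0.109). All 3 knockout arrays were below all wild type arrays at both Laptm5 probes. The tetraspanin Cd63 differed by -0.27 (adjusted p = 0.14), also with no overlap.

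Scarb2, a membrane protein that also serves as a sorting receptor, had a large difference that did not pass the test. It read 15.4, 16.3 and 16.7% in wild type, and 0.847, 7.48 and 9.16% in the knockouts (-2.06, SE 0.88, adjusted p = 0.226). Every knockout array was below every wild type array, and knockout replicate 1 was far below the other 2.

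Of 12 enzymes that act on sugar chains, 2 fell and 10 did not pass the test (median -0.13), where 3.53% of all measured genes fell. Neu1, the sialidase that removes terminal sialic acids, read 71.5, 78.6 and 73.5% in wild type and 51.7, 56.7 and 54.5% in the knockouts. The groups did not overlap and the fall was 1.37-fold (-0.46, SE 0.08, adjusted p = 0.0391). Ids, the sulfatase that starts the breakdown of heparan and dermatan sulfate, read 4.09, 4.25 and 4.2% in wild type. It read 3.25, 2.85 and 3.11% in the knockouts, a fall of 1.36-fold (-0.45, SE 0.08, adjusted p = 0.0435). Under normexp Ids differed by 0.19 (adjusted p = 0.787), so its direction depends on the background correction.

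The alpha-mannosidase Man2b1 came next, with 163, 183 and 166% in wild type and 132, 128 and 143% in the knockouts (-0.35, adjusted p = 0.0912). The remaining 9 sugar-chain enzymes lay within -0.18 to 0.27 and none had an unadjusted p under 0.05. Below 0 were Manba (-0.18), Gaa, which digests glycogen (-0.17), the glucuronidase Gusb (-0.17) and the galactosidase Glb1 (-0.09). Above 0 were Naglu (0.02), Hexa (0.03), Idua (0.05), Arsb (0.18) and Gla (0.27). The Gla probe was saturated on 5 arrays. Manba read 39.7% in knockout replicate 1 against 66.6 and 75.1% in the others, inside and above the wild type range of 62.5 to 70.0%.

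Of the enzymes of lipid breakdown and their activators 2 of 8 fell (median -0.31), where 3.53% of all measured genes fell. By limma's unadjusted p under 0.05, 6 of the 8 were lower, where 13.6% of all measured genes were. Lipa, the acid lipase that splits cholesteryl esters and triglycerides, read 15.3, 15.1 and 12.9% in wild type and 7.20, 6.35 and 6.66% in the knockouts. The groups were far apart, with a 2.14-fold fall (-1.10, SE 0.10, adjusted p = 0.00722). Lipa had the smallest p of the 45, was called in 5 of 6 fits that left out 1 array, and differed by -1.06 within slide 1 and -1.18 in the slide 2 pair. Without wild type replicate 2 its adjusted p was 0.0509.

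Psap is the precursor of the saposins, small proteins that present sphingolipids to their enzymes. It read 536, 477 and 552% in wild type and 289, 336 and 344% in the knockouts, 1.62-fold lower (-0.69, SE 0.10, adjusted p = 0.0279). The acid ceramidase Asah1 read 49.4, 58.6 and 50.7% in wild type and 42.2, 37.9 and 43.1% in the knockouts (-0.36, adjusted p = 0.111), and its second probe differed by -0.44 (adjusted p = 0.0534). The sphingomyelinase Smpd1 read 63.7, 70.5 and 63.5% in wild type and 52.3, 53.1 and 51.7% in the knockouts (-0.33, adjusted p = 0.0779).

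The phospholipase Pla2g15 (-0.29) and Gm2a (-0.21), which lifts ganglioside out of the membrane for hexosaminidase, were also below all wild type arrays in every knockout (adjusted p = 0.202 and 0.163). Ppt1, which removes fatty acids from proteins, differed by 0.06. The sulfatide-degrading enzyme Arsa read 990, 1050 and 952% in wild type and 1130, 1110 and 1230% in the knockouts (0.21, adjusted p = 0.191). The groups did not overlap at Arsa, and its probe was saturated on 1 array.

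Among 5 proteases, phosphatases and granulin, 1 fell (median -0.56), where 3.53% of all measured genes fell. Lgmn, the asparagine-specific endopeptidase legumain that also matures cathepsins, read 517, 539 and 491% in wild type and 318, 332 and 304% in the knockouts. The fall was 1.62-fold (-0.70, SE 0.08, adjusted p = 0.0124), and spread within each group was small beside it (SD 0.07 and 0.06 on the log2 scale, n = 3 each). The tripeptidyl peptidase Tpp1 read 25.5, 32.7 and 25.3% in wild type and 18.7, 20.0 and 17.5% in the knockouts (-0.56, adjusted p = 0.0725). Grn, the precursor of granulins and a regulator of lysosomal enzymes, read 0.28, 0.63 and 0.58 in wild type and -0.25, -0.08 and 0.09 in the knockouts, as log2 against the 75th percentile (-0.57, adjusted p = 0.0829). Both were without overlap between the groups but missed the threshold. The acid phosphatases Acp2 (0.21) and Acp5 (-0.29) were not called, and Acp5 had probes of opposite sign.

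**Figure D2:**
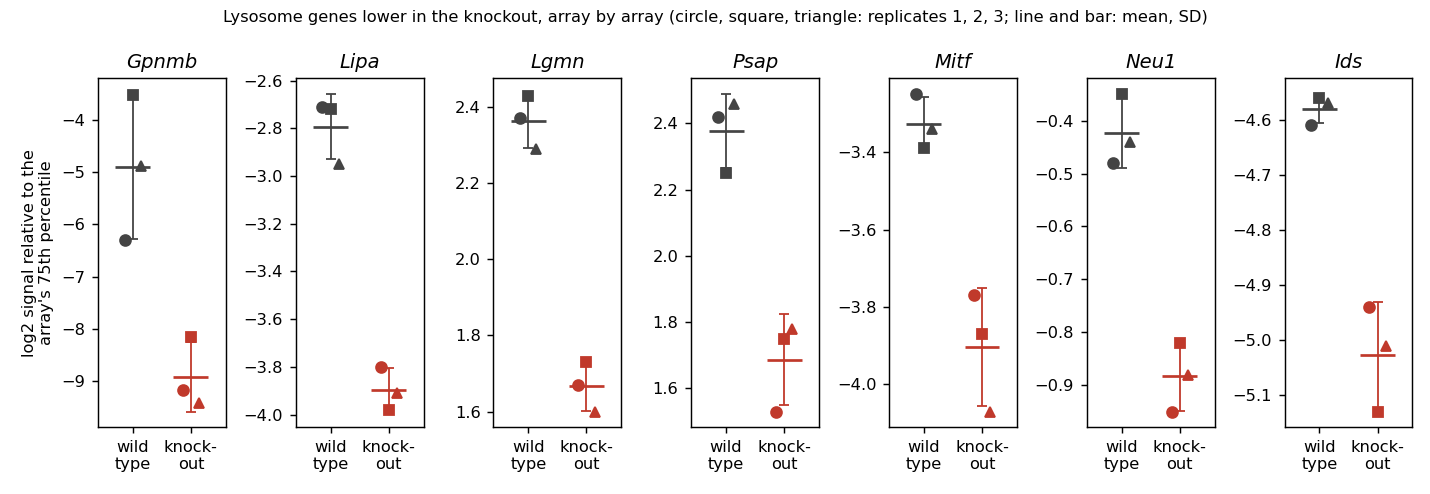
Log2 signal relative to the array's 75th percentile for the 7 genes that fell, by array, with circles, squares and triangles for replicates 1, 2 and 3 and lines and bars for the mean and SD of 3 mice; each panel has its own axis. Every knockout array lies below every wild type array in all 7 panels, and no Gpnmb point in the knockout is well above background.

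Of 5 genes of the proton pump 0 fell and 0 rose (limma; by unadjusted p under 0.05, 1 lower and 0 higher), with a median of -0.02. Atp6v1a, the catalytic subunit, differed by 0.15 (adjusted p = 0.284) and Atp6v1h, a regulatory subunit of the same cytosolic sector, by 0.09. The 2 forms of the d subunit, which joins the sectors, were at -0.05 for the widespread Atp6v0d1 and -0.02 for Atp6v0d2. Atp6v0d2, a form of osteoclasts and some macrophages, read 1.18 to 1.58% in wild type and 1.31 to 1.55% in the knockouts. Its other probe never stood well above background. The accessory subunit Atp6ap1 had the smallest p of the pump genes, at 34.2, 34.9 and 30.5% in wild type and 27.7, 27.8 and 29.2% in the knockouts (-0.23, adjusted p = 0.177).

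Mcoln1, the lysosomal calcium channel, and Cln3, a membrane protein lost in a childhood storage disease, both lay just below 0. Mcoln1 read 79.1, 83.5 and 77.2% in wild type and 70.2, 75 and 76.4% in the knockouts (-0.11, adjusted p = 0.371), and Cln3 differed by -0.10 (adjusted p = 0.428).

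Of 3 sorting receptors 0 fell and 0 rose (limma; by unadjusted p under 0.05, 0 lower and 1 higher). The mannose 6-phosphate receptors M6pr and Igf2r, which deliver the tagged enzymes, differed by 0.02 and -0.06 (adjusted p = 0.914 and 0.733). Sortilin, Sort1, delivers prosaposin, among others, without that tag. It read 175, 173 and 164% in wild type and 194, 202 and 207% in the knockouts at its brighter probe (0.24, SE 0.07, adjusted p = 0.13).

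Of the MiT transcription factors, which switch on lysosome genes as a set, Mitf fell and the others were not called. Mitf read 10.5, 9.52 and 9.86% in wild type and 7.33, 6.84 and 5.97% in the knockouts, 1.49-fold lower (-0.57, SE 0.10, adjusted p = 0.0427). All knockout arrays were below all wild type arrays, and the second Mitf probe differed by -0.46 (adjusted p = 0.155). With 1 array left out Mitf was called in 0 of 6 fits (limma, adjusted p 0.0558 to 0.144). It was also not called with quantile normalization (0.0571), median scaling (0.0614) or the mean of its probes (0.0647). Under normexp Mitf differed by -0.17. Tfeb read 13, 15.2 and 14.1% in wild type and 13, 13.4 and 11.1% in the knockouts, with overlap (-0.18, adjusted p = 0.333; 0.05 under normexp). Tfe3 read 162, 163 and 171% in wild type and 134, 160 and 144% in the knockouts (-0.19, adjusted p = 0.254), and -0.26 at its second probe (adjusted p = 0.138). These are transcript levels only; Tfeb and Tfe3 proteins are known to be controlled mainly by their location in the cell.

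The factors of this family bind the E-box CACGTG, which is common upstream of lysosome genes. RefSeq promoter windows (GRCm38.p6, 250 bases before to 50 after each annotated start) were found for 40 of the 45 genes. CACGTG, which reads the same on both strands, occurred in a window of 12 of the 40 genes, or 30%, against 8.09% of all genes and 7.15% of all windows. The longer TCACGTGA, which contains it, occurred in 6 (15%), against 1.12% of all genes. Of the 7 genes that fell, 1 held CACGTG, Lgmn, at its second annotated start, and 0 held TCACGTGA. The motif TCATGTG, searched on both strands, occurred in 7 of the 40 genes (17.5%, against 4.31% of all genes) and in 0 of the 7 that fell. A p53 family site, sought as a pair of decamers 0 to 13 bases apart, was found in 0 of the 40 and in 0.0731% of all windows. The median difference was -0.06 over the 12 genes with CACGTG and -0.28 over the 28 without it. Most of the genes without it were not called either. Among the 12, the probes of Lamp1, Gla and Arsa were saturated on 5, 5 and 1 arrays. Whether the E-box has a part in the falls was not tested. These matches describe letters in a window and are no measure of binding.

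The runs below are examples picked from genes that hold the E-box and were not called, and from genes that fell. Each is the 100 bases before the first annotated start, written 5′ to 3′ on the gene's strand with CACGTG in capitals. For Lgmn, 30 bases around the match at its second start are given. Lamp1 (chr8:13159061-13159160, + strand), Mcoln1 (chr8:3500419-3500518, +), Glb1 (chr9:114400978-114401077, +) and Igf2r (chr17:12769707-12769806, -) hold 4, 2, 1 and 2 matches. Lgmn (chr12:102439124-102439153, -) holds 1, and Gpnmb (chr6:49036418-49036517, +) and Lipa (chr19:34527475-34527574, -) hold 0.
Lamp1: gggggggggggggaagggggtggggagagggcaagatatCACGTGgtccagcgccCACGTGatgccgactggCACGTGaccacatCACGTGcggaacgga
Mcoln1: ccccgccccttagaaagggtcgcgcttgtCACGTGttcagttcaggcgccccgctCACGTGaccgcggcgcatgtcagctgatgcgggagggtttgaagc
Glb1: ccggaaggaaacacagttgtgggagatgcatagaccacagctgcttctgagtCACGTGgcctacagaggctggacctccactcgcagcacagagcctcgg
Igf2r: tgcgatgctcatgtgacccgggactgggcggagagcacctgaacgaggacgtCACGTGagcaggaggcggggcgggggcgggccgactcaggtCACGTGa
Lgmn: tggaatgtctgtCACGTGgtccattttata
Gpnmb: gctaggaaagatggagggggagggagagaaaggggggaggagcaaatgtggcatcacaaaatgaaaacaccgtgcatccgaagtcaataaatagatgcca
Lipa: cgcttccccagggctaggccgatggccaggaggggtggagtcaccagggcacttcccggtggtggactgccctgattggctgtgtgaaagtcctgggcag

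The 4 E-box genes shown that were not called differed by 0.23 (Lamp1), -0.06 (Igf2r), -0.09 (Glb1) and -0.11 (Mcoln1), with groups overlapping for all but Mcoln1. Lgmn, Lipa and Gpnmb differed by -0.70, -1.10 and -4.02.

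Several probes of 1 gene could disagree. Of 15 lysosome genes with more than 1 tested probe, 9 had probes of the same sign and 6 did not: Acp5, Cln3, Gaa, Idua, Lamp2 and Sort1. At Lamp2 the second probe, A_52_P483280, read 73.9, 75.3 and 79.4% in wild type, 9.86% in knockout replicate 1 and 54.5% in replicate 2. Its spot on knockout replicate 3 was marked as an outlier by the scanner software and left out, so the difference of -1.72 (SE 0.70, adjusted p = 0.224) rests on 2 knockout arrays. The array assigns the Lamp2 probes to different transcripts, and both probes of Acp5 and of Sort1 to 1 transcript each.

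At Acp5, the tartrate-resistant phosphatase, probe A_55_P2037608 read 69.2, 70.2 and 58.2% in wild type and 18.6, 91.3 and 91.6% in knockout replicates 1 to 3. Knockout replicate 1 was thus below all other arrays, and the other knockouts were above all wild type arrays. The second Acp5 probe read 56.6, 64.1 and 66.2% in the knockouts, above the wild type range of 47.5 to 54.5% on every array (0.30, adjusted p = 0.147). Sort1 probe A_52_P590396 read 58.3, 58.5 and 58.7% in wild type and 46.5, 45.4 and 35.8% in the knockouts (-0.47, SE 0.11, adjusted p = 0.093), where the brighter probe was higher in each knockout. At Idua the second probe differed by -0.59 (adjusted p = 0.104) against 0.05 at the brighter one. With the mean of all probes per gene, 6 members fell in place of 7, Lamp2 differed by -0.14 and Sort1 by -0.12.

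**Figure D3:**
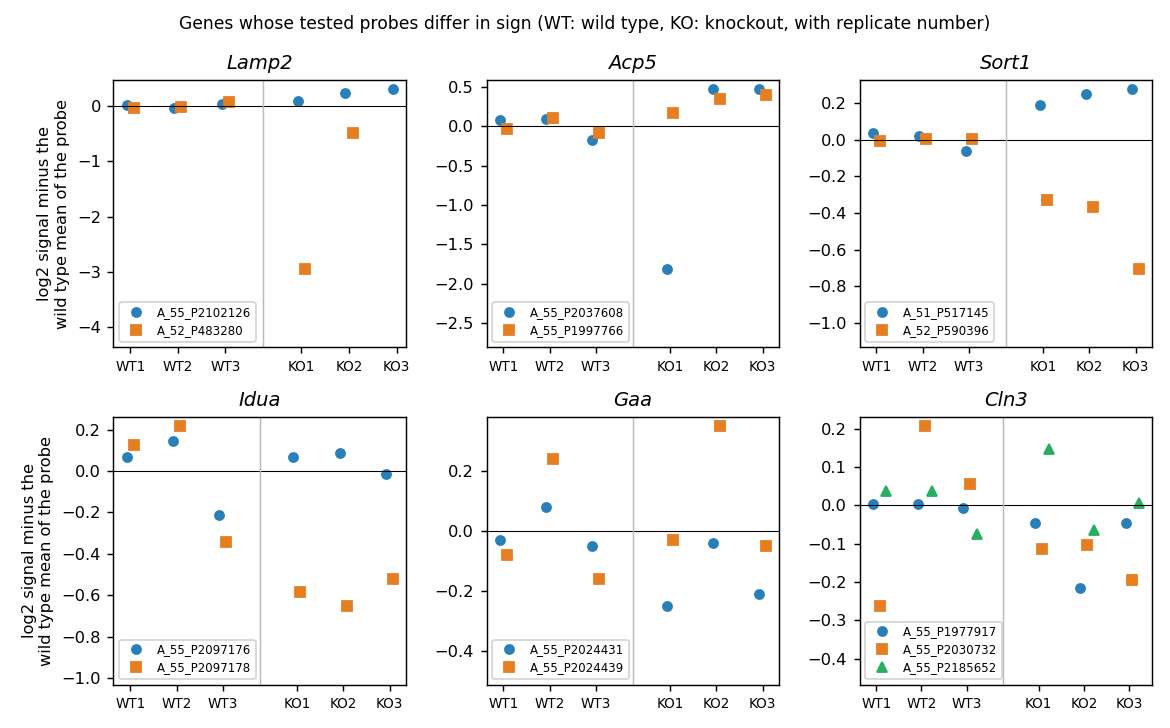
Log2 signal of each tested probe minus that probe's wild type mean, by array, for the 6 lysosome genes whose probes differ in sign; WT and KO are wild type and knockout with the replicate number. The low points at Lamp2 and Acp5 belong to knockout replicate 1, while the 2 Sort1 probes move apart on all 3 knockout arrays.

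A wider list of 138 other lysosome genes, which again left out the cathepsins, was described in the same way. Of 135 measured, 8 fell (5.93%, against 3.53% of all measured genes) and 1 rose (0.218% of all measured genes did), with a median of -0.07 against -0.17 for the 45 genes and 0.05 for all measured genes. The median was -0.0042 with median scaling and 0.01 under normexp, where all measured genes had medians of 0.11 and 0.16. The 8 genes were hydrolases and their partners (3 of 32) or membrane proteins, channels and carriers (5 of 35). Litaf, a small protein of late endosomes and lysosomes, was 1.66-fold lower (-0.73, SE 0.09, adjusted p = 0.0152). Hgsnat, which acetylates heparan sulfate for its breakdown, was 1.57-fold lower (-0.65, SE 0.08, adjusted p = 0.0183). The others included the prenylcysteine oxidase Pcyox1 (-0.55), the neuronal ceroid lipofuscinosis gene Cln8 (-0.54), the chloride transporter Clcn7 (-0.51) and the membrane glycoprotein Glmp (-0.52). Lamp5, a relative of Lamp1 found in few cell types, rose from 3.08, 3.01 and 2.97% to 4.50, 3.93 and 4.15% (0.47, SE 0.08, adjusted p = 0.0379). With 1 array left out, Litaf was called in 3 of 6 fits, Hgsnat in 1, and Pcyox1, Cln8, Clcn7, Glmp and Lamp5 in 0 (Lamp5 adjusted p 0.0736 to 0.154).

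No gene was called among the pump, sorting and regulatory genes of this list. Of 20 other pump genes 0 fell and 0 rose (limma; by unadjusted p under 0.05, 2 lower and 2 higher; median 0.00). Of 23 genes of sorting to the lysosome 0 fell and 0 rose (limma; by the same p, 3 lower and 2 higher; median 0.02), and of 25 genes of lysosomal signalling and autophagy 0 fell and 0 rose (limma; by the same p, 5 lower and 0 higher; median -0.07).

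**Figure D4:**
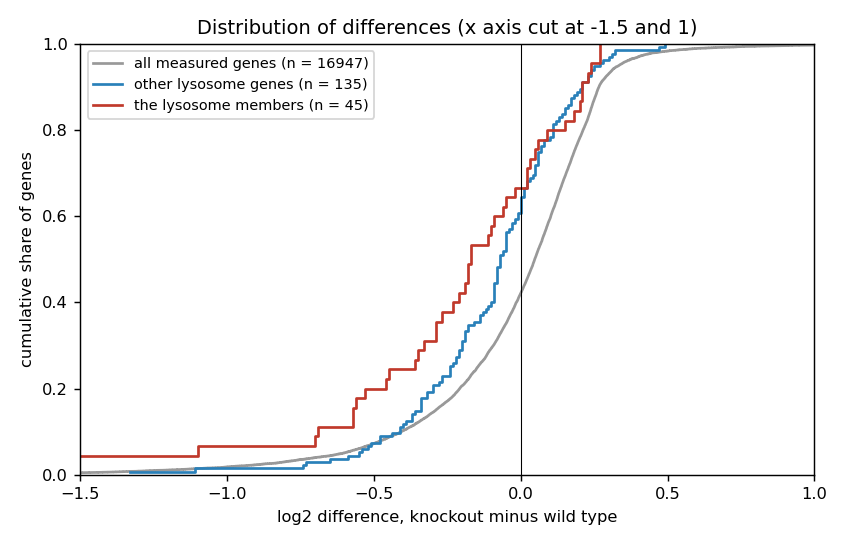
Cumulative share of genes by log2 difference between knockout and wild type, for the 45 lysosome genes, 135 other lysosome genes and all 16947 measured genes, with the x axis cut at -1.5 and 1. The curve of the 45 genes lies to the left of that of all genes over most of the range, with medians of -0.17 and 0.05.

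Some markers of Sertoli cells and macrophages, the lysosome-rich cells of the testis, fell in the same arrays. Of all measured genes 3.53% fell and 0.218% rose, with a median of 0.05. Of 18 measured Sertoli markers 4 fell and 0 rose (median -0.44), among them Sox9 (-0.64, adjusted p = 0.0186) and Vim (-0.58, adjusted p = 0.028). All 18 were above background. Their summed level was 62.5 to 66.7 times the 75th percentile in wild type and 55.7 to 60.9 times in the knockouts, or 38.1 to 40.3 and 27.9 to 29.1 without the 2 saturated probes, Amhr2 and Clu. Of 18 measured macrophage markers 5 fell and 0 rose (median -0.28), among them Mpeg1 (-1.13, adjusted p = 0.0071) and Cd14 (-0.72, adjusted p = 0.01). Their summed level was 29.2 to 29.7 in wild type and 27.8 to 31.4 in the knockouts, and 15.4 to 17.3 and 12.9 to 14.1 without the saturated Aif1 probe. The macrophage list ranged from -1.13 to 0.27, with 3 of 18 markers above 0, and the Sertoli list from -1.89 to 0.26, with 2 of 18 above 0. With 1 array left out, Mpeg1 was called in 6 of 6 fits, Cd14 in 4, and Sox9 and Vim in 1 each (adjusted p 0.0448 to 0.0951 and 0.0447 to 0.132). With slide as a block Vim was not called (adjusted p = 0.0683), and with the replicate block none of these 4 was (0.0765 to 0.155).

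In whole tissue, fewer cells of a type and less RNA per cell cannot be told apart, and the part of these cells in the falls of Lipa, Lgmn, Psap, Neu1, Ids, Gpnmb and Mitf was not tested. For melanocytes, which use Mitf and Gpnmb, 4 markers were measured, 0 fell and 0 rose (limma; 0 at an unadjusted p under 0.05 in either direction; median 0.06), and Tyrp1 was not above background. For osteoclasts, which use Acp5 and Atp6v0d2, 3 were measured, 0 fell and 0 rose (also 0 at an unadjusted p under 0.05; median 0.02), and Mmp9 was not above background. Over all measured genes 3.53% fell. Leydig cell markers had 2 falls among 8, Hsd3b1 (-0.76, adjusted p = 0.0369) and Hsd11b1 (-0.84, adjusted p = 0.032), and peritubular myoid markers 1 among 6, Smtn (-0.56, adjusted p = 0.0293). Each of these 3 calls was lost in all 6 fits that left out 1 array (adjusted p 0.0501 to 0.154, 0.0572 to 0.118 and 0.0564 to 0.131) and with slide as a block (0.0791, 0.0739 and 0.0729). The Leydig list ranged from -0.84 to 0.63 (median -0.20), with 2 of 8 markers above 0. The myoid list ranged from -0.56 to 0.34 (median -0.05), with 3 of 6 above 0. By limma's unadjusted p under 0.05, 1 marker of each list was higher.

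Markers of spermatocytes, round spermatids and elongating spermatids were above 0, with medians of 0.21, 0.24 and 0.27 and 0 called in each direction (limma; by unadjusted p under 0.05, 4, 6 and 4 higher and 0 lower). Of all measured genes, 12.0% were higher at that p. Of these probes, 0 of 8, 3 of 8 and 8 of 9 reached saturation on some array. Scaling alone gives a probe saturated on every array 0.26 in the knockout, close to the elongating spermatid median. The remaining lists, of spermatogonia (8 measured, median -0.17), lymphocytes and mast cells (5, -0.02), blood cells (3, -0.20), endothelial cells (6, -0.09) and epididymis (4, 0.04), had 0 members called (limma; by unadjusted p under 0.05, 2, 0, 1, 1 and 0 lower and 1, 0, 0, 0 and 0 higher).

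**Figure D5:**
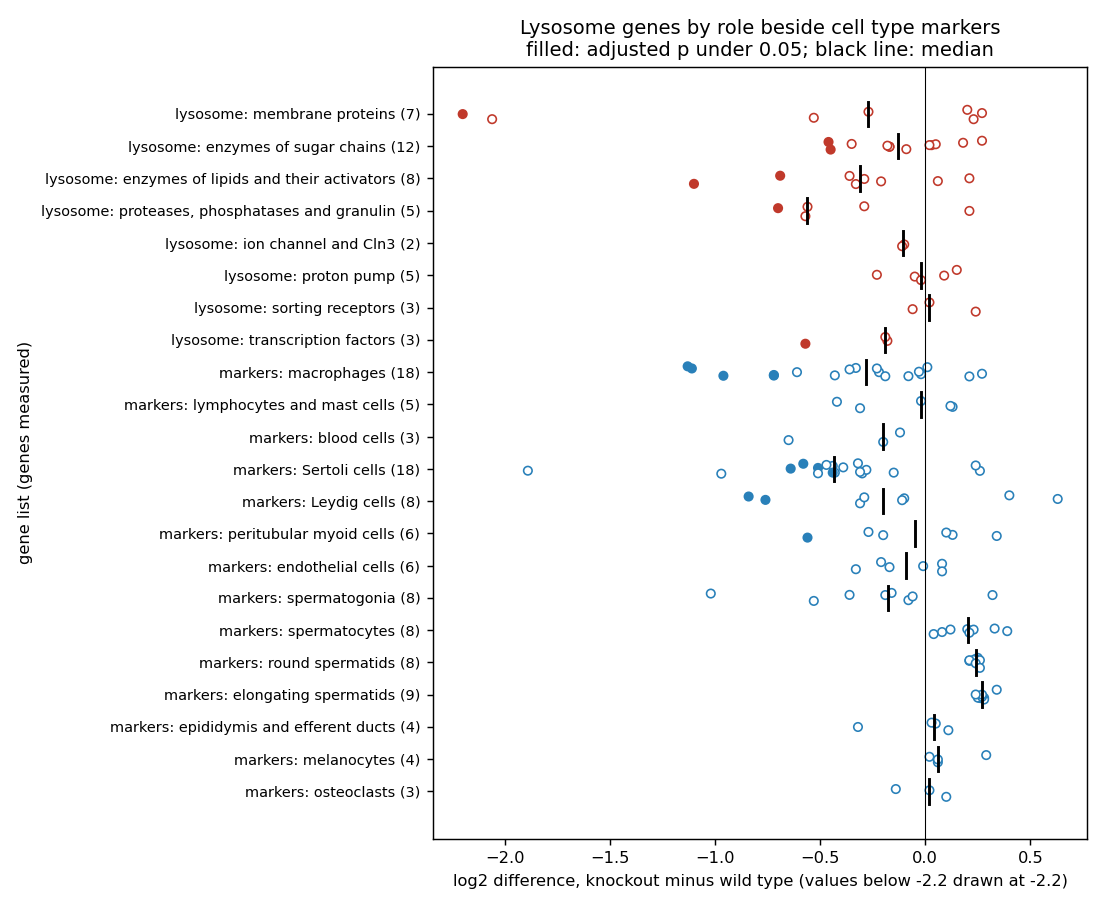
Log2 difference of each measured gene, by role for the 45 lysosome genes (red) and by cell type for the marker genes (blue), with filled points for an adjusted p under 0.05 and black lines at the medians; values below -2.2 are drawn at -2.2. Sertoli and macrophage markers have medians of -0.44 and -0.28, the lipid enzymes -0.31, the proton pump -0.02, and the spermatid lists 0.24 and 0.27.

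The slides and the position of the genes were also examined. Within slide 1 (2 knockout and 2 wild type arrays) the median of the 45 genes was -0.12 and in the pair on slide 2 it was -0.17. Within slide 1 0 members were called, and limma's unadjusted p was under 0.05 with a lower value for 11. The groups did not overlap at any of the 7 that fell, so their differences had to be negative on both slides. That sign is no separate support for the calls. The smallest differences were at Neu1 and Ids within slide 1 (-0.42 and -0.45) and at Ids on slide 2 (-0.45). None of the 7 lies on chromosome 4, which carries Trp73. The lysosome genes on that chromosome, Laptm5, Ppt1 and Atp6v0d2, are 304, 425 and 957 measured genes away from it.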

How the data were processed

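The authors' scanner output came from Feature Extraction 10.7.3.1 (1-colour protocol, array design built on mm9), per the file headers, and holds linear spot intensity; the deposited processed signal was used. The authors' deposited value table also holds intensity, with no normalization described in these sources. The submitters' processing notes name limma.

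Control spots and spots marked as outliers (163 to 280 per array) were left out and saturated spots kept. Log2 signals were averaged per probe (39429 probes) and scaled by subtracting the 75th percentile of the array. Tests covered probes well above background on at least 3 of 6 arrays with at least 2 values per group (31801 probes). Names came from matching the array's accessions to RefSeq (GRCm38.p6): 26055 probes had 1 symbol, 0 had several and 13374 had none. A gene was represented by its brightest tested probe with values on all arrays. limma 3.58.1 (lmFit, eBayes; group as the only term, two-sided; R 4.3.3) was tested on simulated data. The bound for a gene below background raises each dim array to the lowest signal well above background of any probe on that array. The number of arrays limits the precision.

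The members, gene lists and tests were chosen with earlier results of these data known. Genes were named by rule: every called member, Gpnmb and the 3 transcription factors, members higher at an unadjusted p under 0.05, the smallest p of each role with no call, up to 8 called other lysosome genes each way (some are not reported here) and up to 2 called markers per list. Other members are given by value. Replicate numbers did not pair the arrays (correlations of deviations -0.03, -0.08 and -0.09).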

Additional observations from a re-analysis of the deposited data

How the results depend on the processing

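Settings changed 1 choice each, except that normexp with quantile normalization changed background correction and scaling, normexp also replaced the processed signal, and the value table changed labels, processing and filter. The planned normexp on mean spot signals was not run, because the files used here hold median spot signals; those were used instead, a choice made after seeing the data, and it also served normexp with quantile normalization. Calls of the 45 genes, 7 lower and 0 higher, became 0 lower under normexp, 2 with normexp and quantile normalization, 2 with no filter on dim probes, 2 with slide as a block, 0 within slide 1, and 0 with the replicate number as a block (limma; 15 lower at an unadjusted p under 0.05), and 0 to 3 when 1 array was left out. Under the value table's own labels 0 were lower and 3 higher. The other settings gave 5 to 7 lower, and 0 were higher in each fit of the scanner files. Other lysosome genes, 8 lower and 1 higher, gave 0 and 0 under normexp, 3 lower with median scaling, 2 and 0 with no filter, 1 and 0 with slide as a block, 0 and 0 within slide 1 and with the replicate block, 0 to 2 lower and 0 higher when 1 array was left out, 0 and 2 in the value table, and 0 higher with normexp and quantile normalization.

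Over all probes, 838 lower and 79 higher became 0 and 0 under normexp and within slide 1, 405 lower with normexp and quantile normalization, 349 and 13 with no filter, 299 and 15 with slide as a block, 9 and 1 with the replicate block, 56 and 466 in the value table, and 117 to 418 and 7 to 28 when 1 array was left out. Higher calls were 217 with quantile normalization, 143 with median scaling and 165 with only probes above background on all 6 arrays. Median scaling and normexp moved the median of all genes from 0.05 to 0.11 and 0.16.

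The median of the 45 genes was -0.06 under normexp, -0.21 to -0.12 when 1 array was left out and 0.14 in the value table. That of the other lysosome genes was 0.01 under normexp, -0.0042 with median scaling, -0.08 to -0.05 when 1 array was left out and 0.08 in the value table. Signs of single genes turned for Ids (0.19) and Tfeb (0.05) under normexp, for Lamp2 (-0.14) and Sort1 (-0.12) with all probes averaged, and for Laptm4a with quantile normalization (-0.01) and with normexp added to it (-7.4e-05). The cause was not tested. Saturation limits Lamp1, Laptm4a and Gla, and background limits Gpnmb.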
